A study of Homo sapiens with 54 samples.

Results

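The genes described here are the human WNT ligands, their frizzled receptors and the proteins that limit, process or report WNT signals. The set has 42 members among the 19720 genes with a named probe. It holds 19 WNT ligands, 10 frizzled receptors, 5 secreted frizzled-related antagonists, 4 Dickkopf proteins, the 2 ligand-processing proteins WLS and PORCN, and the 2 transcriptional members AXIN2 and LEF1. Members were taken by gene family, through the RefSeq accession of each probe, and not by their signal. Earlier results of these data were known when they were chosen. All 42 had a probe, and where a gene had more than 1, its brightest probe on average across the arrays was used.

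The arrays came from a study of FGFC, a chimeric FGF used in place of basic FGF (bFGF) for human pluripotent stem cells. H1 embryonic stem cells were grown in E8 Medium, which is Essential 6 Medium with 2 ng/mL of TGF-beta 1 and 100 ng/mL of bFGF, on Matrigel. In 3 numbered experiments a pre-culture with bFGF was sampled beside arms of 4 days that received bFGF or FGFC (100 ng/mL each) or neither, and the arm without FGF still received TGF-beta 1. The pre-cultures of experiments 1 and 3 were labelled 1 passage before their arms by title, but that of experiment 2 was labelled passage 49 and its arms passage 59, so the labels do not show that these arms came from it. In 5 long-term systems, 1 pre-culture with bFGF was followed by 1 culture with bFGF and 1 with FGFC. These were H1 in E8 Medium for 30 days, H1 in MEF-conditioned medium (MEF-CM, conditioned by mitomycin C-treated mouse embryonic fibroblasts) with 5 ng/mL of FGF for 41 days, KhES-1 embryonic stem cells on such fibroblasts as feeders with 5 ng/mL for 30 days, 201B7 iPS cells on feeders with 10 ng/mL for 50 days, and 253G1 iPS cells in E8 Medium with 100 ng/mL for 36 days. One further H1 culture was differentiated through embryoid bodies without added FGF. Each of the 27 cultures was measured on 2 one-colour arrays, which were averaged and counted as 1 culture. Each system rests on 1 cell line, and nothing in the labels says more about how independent the cultures are. The p-values of the 4-day comparisons thus measure the spread between cultures of the same line, H1. Those of the long-term comparison measure how the difference between FGFC and bFGF varies over the 5 systems, each with 1 culture per FGF.

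WNT proteins are lipid-modified by PORCN, carried to the cell surface by WLS and bound there by frizzled receptors together with a co-receptor of the LRP family. In the canonical branch this stabilises beta-catenin, which acts on target genes with DNA-binding partners such as LEF1, and AXIN2 is a widely used target that feeds back on the pathway. Frizzled-related proteins bind WNT ligands outside the cell and Dickkopf proteins act on the LRP co-receptor, and in pluripotent cells WNT signals are known for their part in leaving the undifferentiated state.

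Levels are given as normalized signal, the log2 of the background-subtracted signal minus the 75th percentile of the array, so that 0 is the signal of a probe at that percentile. A level can be compared between cultures for 1 gene, and not between genes, because probes differ in brightness. A probe was called well above background on an array where the scanner software gave that mark to its spots at a rate of 0.5 or more, and 56.0% to 79.2% of all probes met this per array. In H1 in E8 Medium with FGF the pluripotency genes POU5F1, NANOG, SOX2, LIN28A and DNMT3B were well above background on all 22 arrays. On the arrays of the differentiated culture, POU5F1 was at 2.73 against a mean of 8.09 in the 11 H1 cultures in E8 Medium with bFGF or FGFC.

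The stretches upstream of the genes that rose most without FGF, described further on, are shown first, because these members moved together in the same cultures. They are the 250 bases before the start of the 5 members with the largest rises among those whose window in RefSeq (GRCh38.p14) lay outside the annotated gene. FRZB is at chr2:182866638-182866887 on the minus strand, FZD8 at chr10:35642297-35642546 on the minus strand, DKK1 at chr10:52314031-52314280 on the plus strand, FZD5 at chr2:207769907-207770156 on the minus strand and FZD1 at chr7:91264183-91264432 on the plus strand. Each is written 5′ to 3′ on the strand of the gene, and the capitals mark CTTTG or its reverse complement CAAAG, the core letters bound by TCF/LEF factors.
FRZB: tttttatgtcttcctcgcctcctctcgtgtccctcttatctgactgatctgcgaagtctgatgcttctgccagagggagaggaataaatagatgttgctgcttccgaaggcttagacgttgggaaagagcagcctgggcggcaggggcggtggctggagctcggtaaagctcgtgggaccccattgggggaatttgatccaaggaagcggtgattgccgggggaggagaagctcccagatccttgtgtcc
FZD8: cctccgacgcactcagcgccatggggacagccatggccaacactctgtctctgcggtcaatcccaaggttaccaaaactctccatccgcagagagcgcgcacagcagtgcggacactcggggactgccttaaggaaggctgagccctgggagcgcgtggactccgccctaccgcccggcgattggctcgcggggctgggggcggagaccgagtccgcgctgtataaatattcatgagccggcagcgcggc
DKK1: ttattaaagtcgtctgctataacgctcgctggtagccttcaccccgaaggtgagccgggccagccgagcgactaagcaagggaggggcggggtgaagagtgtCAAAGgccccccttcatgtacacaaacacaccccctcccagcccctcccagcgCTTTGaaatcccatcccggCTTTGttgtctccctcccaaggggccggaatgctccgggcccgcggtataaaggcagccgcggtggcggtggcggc
FZD5: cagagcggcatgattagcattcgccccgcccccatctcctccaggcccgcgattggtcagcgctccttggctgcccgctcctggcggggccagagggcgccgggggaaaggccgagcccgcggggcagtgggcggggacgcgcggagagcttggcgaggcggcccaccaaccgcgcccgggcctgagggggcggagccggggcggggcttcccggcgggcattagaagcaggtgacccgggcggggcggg
FZD1: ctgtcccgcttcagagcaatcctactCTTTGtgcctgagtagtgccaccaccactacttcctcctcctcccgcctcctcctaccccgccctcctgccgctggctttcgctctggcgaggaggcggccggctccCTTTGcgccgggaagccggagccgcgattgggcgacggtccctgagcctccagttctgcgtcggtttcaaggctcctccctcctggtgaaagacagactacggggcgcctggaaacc

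The core letters occurred 3 times upstream of DKK1 and 2 times upstream of FZD1, and did not occur in the windows of FRZB, FZD8 and FZD5. In DKK1 the matches began 148, 95 and 76 bases before the start, and in FZD1 they began 224 and 117 bases before it. The longer letters CTTTGA or TCAAAG, which contain the core, occurred 2 times upstream of DKK1. Of all 35116 windows of this length, 42.1% held the core and 11.2% the longer letters. Of the 29 members with a window in the table, 5 held the core (WNT3, WNT8B, FZD1, DKK1 and LEF1) and 1 the longer letters. The median share of G and C was 68.8% over these members and 58.0% over all windows. A match is only a run of letters, and its absence covers only these 250 bases.

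The receptors were well above background in nearly every culture, while most ligands were not. Of the 10 frizzled receptors 8 were well above background on all 54 arrays, and FZD1 and FZD10 on 51 and 42. Of the 19 ligands WNT3, WNT3A and WNT5A were well above background on all arrays, WNT8A and WNT16 on none, and the other 14 on 2 to 48. SFRP1, SFRP2 and FRZB, DKK3, PORCN, AXIN2 and LEF1 were also well above background on all 54. In all, 18 members were measured on every array, 22 on some and 2 on none. No member was left out of the tests for a low signal.

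After 4 days without FGF, 8 of 10 frizzled receptors, 1 of 5 frizzled-related antagonists, 2 of 4 Dickkopf genes, AXIN2 and LEF1 differed from the bFGF cultures, with 1 of 19 ligands. FRZB, LEF1 and FZD8 showed the largest rises. Against bFGF, 14 of the 42 members (33.3%) passed the test (limma, adjusted p under 0.05 over all 42405 probes), 10 higher and 4 lower. Over all probes the share was 12.7%, with 5.54% higher and 7.19% lower. Against FGFC, 15 members passed, 11 higher and 4 lower, where the shares of all probes were 10.8%, 4.72% and 6.07%. Both comparisons use the same 3 FGF-free cultures and are not independent. The median difference over the 42 members was 0.35 against bFGF, with 0.01 over all probes. Against FGFC it was 0.01, with -0.02 over all probes. These medians take in members near background. WNT8A and WNT16, not well above background on any array, were also higher without FGF than with bFGF. WNT8A stood at -6.12, -6.28 and -6.22 without FGF against -6.66, -6.69 and -7.00 with bFGF. The lowest signal well above background was -5.57 to -4.96 on the FGF-free arrays and -6.01 to -5.54 on the bFGF arrays. The median against bFGF is thus no measure of a shift of the family. Since these are bulk cultures, a change in the share of cells of a type and a change in RNA per cell cannot be told apart.

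The FGF-free cultures also differed in the markers of other cell types. Against bFGF, NANOG and POU5F1 were lower by 1.71 and 1.08 on the log2 scale while SOX2 was higher by 1.32. Of 3 neuroectoderm markers PAX6 and OTX2 rose. The summed signal of the list (where 1 is the signal at the 75th percentile) was 4.42 to 5.17 without FGF and 0.338 to 0.55 with bFGF. OTX2, well above background on all 54 arrays, was the largest term of this sum. It stood at 2.06, 1.75 and 1.71 without FGF, and PAX6 at -2.09, 0.84 and 0.80. SOX1 was not well above background on any array of either arm. Of 3 neural crest genes FOXD3 fell by 3.31 and the other two did not pass (median of the list 0.50). Of 7 fibroblast and mesenchyme genes THY1 and PDGFRB fell by 1.70 and 1.01 and 5 did not pass (median -0.12), with a summed signal of 18.9 to 25.5 without FGF and 47.9 to 55.6 with bFGF. THY1 was the largest term of this sum, at 5.43, 5.27 and 5.51 with bFGF and 3.43, 3.86 and 3.81 without FGF. It was lower still in the differentiated culture, at 2.82, so the sum mainly follows THY1 and is no measure of fibroblasts. Of 6 amnion and trophoblast markers GATA3, TFAP2A, VTCN1 and ISL1 rose, and the summed signal was 0.413 to 1.45 against 0.0577 to 0.102. Of 5 primitive streak and mesendoderm markers 2 passed. GSC fell, from -4.21, -4.90 and -4.54 to -5.45, -6.22 and -6.59, and was well above background on 4 of 6 arrays with bFGF and on none without FGF. TBXT passed upward by 0.83 but was not well above background on any array of either arm. None of 4 endoderm and 4 hepatic and yolk sac markers passed. The part of these cells in the changes below was not tested.

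WNT3, a ligand of the canonical branch that acts in formation of the primitive streak, was the one ligand that passed against bFGF. In experiments 1, 2 and 3 it stood at -2.19, -2.12 and -2.81 with bFGF, at -2.75, -2.36 and -2.75 with FGFC and at -0.28, -0.67 and -1.29 without FGF. The FGF-free cultures lay above all cultures of the other 2 arms, but the pre-cultures of experiments 1 and 2 lay close to the lowest of them, at -1.35 and -1.36. The difference from bFGF was 1.62 (95% interval 0.70 to 2.55, adjusted p = 0.0264) and that from FGFC 1.88 (adjusted p = 0.0148). Neither call held without experiment 1 or without experiment 2, and that against bFGF was also lost with a floor under dim signals or on the second array of each culture (adjusted p up to 0.170 and 0.131).

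Against FGFC the neurally expressed ligand WNT8B passed as well. It was not well above background on any array of the FGFC arm, so its rise is given as at least 3.16-fold (adjusted p = 0.0237). Its levels without FGF were -4.84, -3.09 and -3.58, which overlapped with those under bFGF at -4.29, -6.21 and -5.0, and the test against bFGF was not passed (adjusted p = 0.155). The call against FGFC was lost without experiment 2 or 3, with a floor under dim signals and on the second arrays (adjusted p up to 0.242). The other 17 ligands did not pass in either comparison in the main fit. WNT6 was at -3.37, -3.52 and -3.27 without FGF, above all cultures of the other 2 arms. These stood at -3.94, -4.35 and -3.95 with bFGF and at -3.91, -3.84 and -4.94 with FGFC. WNT6 passed against bFGF with normexp, on the second arrays and with the 2 compared arms alone. Against FGFC it passed with quantile normalization, on the second arrays and with a filter on dim probes. WNT2, WNT4, WNT5B, WNT8A and WNT16 also passed in some alternative runs. WNT5B, a ligand of the non-canonical branch, moved by -1.15, 2.23 and 1.03 in the 3 experiments. WNT3A, which acts in the canonical branch, had a second, dimmer probe that was lower without FGF by 1.02 (adjusted p = 0.0344), while the probe used here differed by -0.29 (adjusted p = 0.387).

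The frizzled receptors changed in both directions. FZD1, FZD2, FZD3, FZD5 and FZD8 rose and FZD7, FZD9 and FZD10 fell against bFGF, so that 8 of 10 passed, and the same counts in each direction were found against FGFC. In each of these 8 genes the 3 FGF-free cultures lay outside the range of the 6 cultures grown for 4 days with an FGF. FZD4, a receptor for norrin as well as WNT ligands, was at 0.81, 0.67 and 0.69 without FGF and at 0.67, 0.55 and 0.70 with bFGF, and the ranges overlapped. FZD6 was higher by 0.59 against bFGF, which missed the threshold (adjusted p = 0.0581). With the experiment as a replicate block, which pairs the arms, it passed (adjusted p = 0.0442). FZD6 also passed against bFGF in other settings, among them quantile normalization and the slide as a block.

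**Figure D1:**
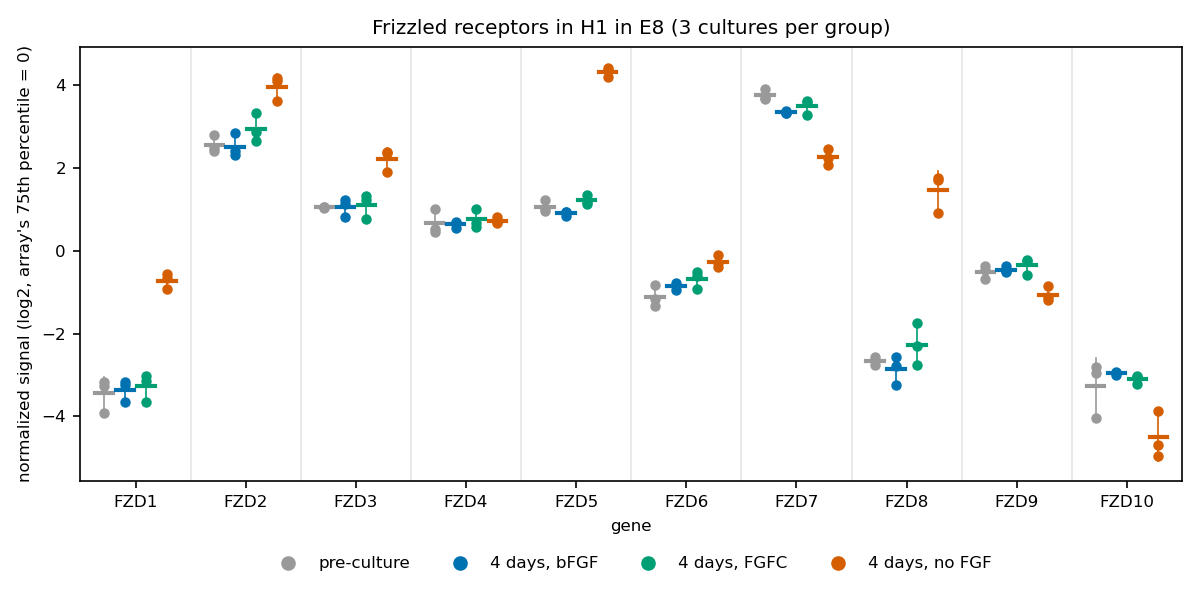
Normalized signal (log2, 75th percentile of the array at 0) of the 10 frizzled receptors in H1 cells in E8 Medium, with 1 point per culture, the mean as a horizontal bar and 1 SD as a vertical line, 3 cultures per group. FZD5 and FZD8 without FGF stand at 4.19 to 4.42 and 0.91 to 1.76, far above the other 3 groups, while FZD7 falls to 2.08 to 2.46. Heights can be compared within a gene only.

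FZD8 and FZD5 showed the largest changes among the receptors. FZD8 stood at -3.25, -2.58 and -2.77 with bFGF, at -2.77, -1.75 and -2.29 with FGFC and at 0.91, 1.71 and 1.76 without FGF. This was a rise of 4.33 over bFGF, or 20.1-fold (95% interval 3.67 to 4.99, adjusted p = 6.35e-06). FZD5 stood at 0.83, 0.94 and 0.93 with bFGF, at 1.17, 1.12 and 1.36 with FGFC and at 4.19, 4.37 and 4.42 without FGF. The rise over bFGF was 3.42 (3.09 to 3.75, adjusted p = 3.62e-07), and it was 3.36, 3.43 and 3.49 in the single experiments. Both genes encode receptors of the same frizzled subfamily.

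FZD1, a receptor that can signal through beta-catenin, rose from -3.66, -3.23 and -3.17 with bFGF to -0.93, -0.57 and -0.66 without FGF, by 2.63 (adjusted p = 5.33e-05). FZD2 rose from 2.31, 2.40 and 2.83 to 3.62, 4.10 and 4.16, by 1.45 (adjusted p = 0.00201). FZD3, a receptor with a part in planar polarity and axon guidance, rose from 0.82, 1.23 and 1.13 to 1.89, 2.37 and 2.35, by 1.15 (adjusted p = 0.00352). FZD1 passed in all alternative settings, whereas against bFGF FZD2 was lost without experiment 2 (adjusted p = 0.0806) and FZD3 without experiment 2 or 3 (up to 0.125). Against FGFC FZD2 was lost without any one of the 3 experiments (up to 0.260).

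FZD7, a frizzled receptor known for its high expression in human embryonic stem cells, fell from 3.33, 3.37 and 3.32 with bFGF to 2.46, 2.25 and 2.08 without FGF. The difference was -1.08 (-1.44 to -0.72, adjusted p = 0.00125), and against FGFC it was -1.24 (adjusted p = 0.000574). FZD10 fell from -2.94, -3.01 and -2.93 to -4.97, -3.88 and -4.68 and was well above background on 2 of the 6 FGF-free arrays (difference -1.55, adjusted p = 0.0108). Some H1 cultures with FGF lay within this FGF-free range, the pre-culture of experiment 3 at -4.04 and the 30-day FGFC culture at -4.73. FZD9 fell from -0.51, -0.38 and -0.50 to -1.19, -0.86 and -1.12, by 0.60 (adjusted p = 0.0397). Against bFGF FZD7 was lost without experiment 3 (adjusted p = 0.0940), FZD10 without experiment 1 or 3 (up to 0.112) and FZD9 without any one of the 3 (up to 0.366). With the normexp background correction the fall of FZD10 was 0.49 and did not pass (adjusted p = 0.0530).

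FRZB, a secreted antagonist also called SFRP3, showed the largest change of all 42 members. It stood at -2.71, -2.04 and -2.0 with bFGF, at -1.91, -1.41 and -1.15 with FGFC and at 4.68, 4.51 and 4.84 without FGF. The pre-cultures were at -2.30, -2.14 and -1.78, so all 9 cultures with FGF lay far below the 3 without it. The rise over bFGF was 6.93, or 122-fold (6.37 to 7.49, adjusted p = 1.48e-07), and over FGFC it was 6.16 (adjusted p = 3.25e-07). The other antagonists of this family did not pass in the main fit. SFRP1 was at 4.20, 4.27 and 4.86 without FGF and at 3.55, 3.66 and 3.99 with bFGF (difference 0.71, adjusted p = 0.0998), and was higher by 0.64, 0.61 and 0.87 in the single experiments. With the experiment as a replicate block, which pairs the arms, SFRP1 passed against bFGF (adjusted p = 0.0146), as it did with the slide as a block (0.0300). SFRP2 was at 2.71, 3.68 and 3.84 against 4.07, 3.87 and 4.20. SFRP4 and SFRP5 were well above background on 1 and 22 of the 54 arrays. SFRP4 passed against bFGF only with the 2 compared arms alone in the fit.

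DKK1, an inhibitor that acts on the LRP co-receptors, rose from near background. It stood at -5.45, -6.46 and -3.90 with bFGF, at -6.03, -5.75 and -6.02 with FGFC and at -2.29, -0.98 and -1.59 without FGF. The bFGF culture of experiment 3 was higher than the other 2, but all FGF-free cultures lay above it. The probe was well above background on 2 of 6 arrays with bFGF, on 1 of 6 with FGFC and on 6 of 6 without FGF, and the rise over bFGF was 3.66 (adjusted p = 0.00123). With the normexp background correction it was 1.59, and it passed there too (adjusted p = 0.000148). DKK3, a divergent family member, rose from -0.49, -0.01 and -0.25 to 0.63, 0.94 and 0.99, by 1.10 (adjusted p = 0.00410), and its second probe by 1.00 (adjusted p = 0.00211). The first call was lost without experiment 2 or 3 (up to 0.119). DKK2 and DKK4 were well above background on 4 and 11 of the 54 arrays and did not pass in the main fit.

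The ligand-processing proteins did not pass against either FGF in the main fit. PORCN passed against FGFC with the slide as a block (adjusted p = 0.0487) and with the normexp background correction. PORCN was at 2.17, 1.70 and 1.89 without FGF and at 2.35, 2.19 and 2.25 with bFGF. WLS was at -5.03, -3.19 and -4.48 against -3.58, -4.40 and -3.82, with overlapping ranges.

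The transcriptional members moved in opposite directions. LEF1 stood at -4.01, -4.04 and -3.84 with bFGF, at -3.77, -3.88 and -3.57 with FGFC and at -0.11, 0.73 and 0.67 without FGF. The rise was 4.39 over bFGF, or 21.0-fold (3.73 to 5.06, adjusted p = 6.09e-06). AXIN2 stood at -0.72, -0.86 and -0.86 with bFGF, at -0.39, -0.90 and -0.60 with FGFC and at -1.58, -1.5 and -1.51 without FGF. All FGF-free cultures were below all others, by 0.72 against bFGF (adjusted p = 0.0241) and by 0.90 against FGFC (adjusted p = 0.00831). A second AXIN2 probe was also lower, by 0.89 (adjusted p = 0.0193) and 1.10 (adjusted p = 0.00707). The calls of the brighter probe were lost when any one of the 3 experiments was left out, with adjusted p up to 0.230 and 0.169, although the direction was kept.

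**Figure D2:**
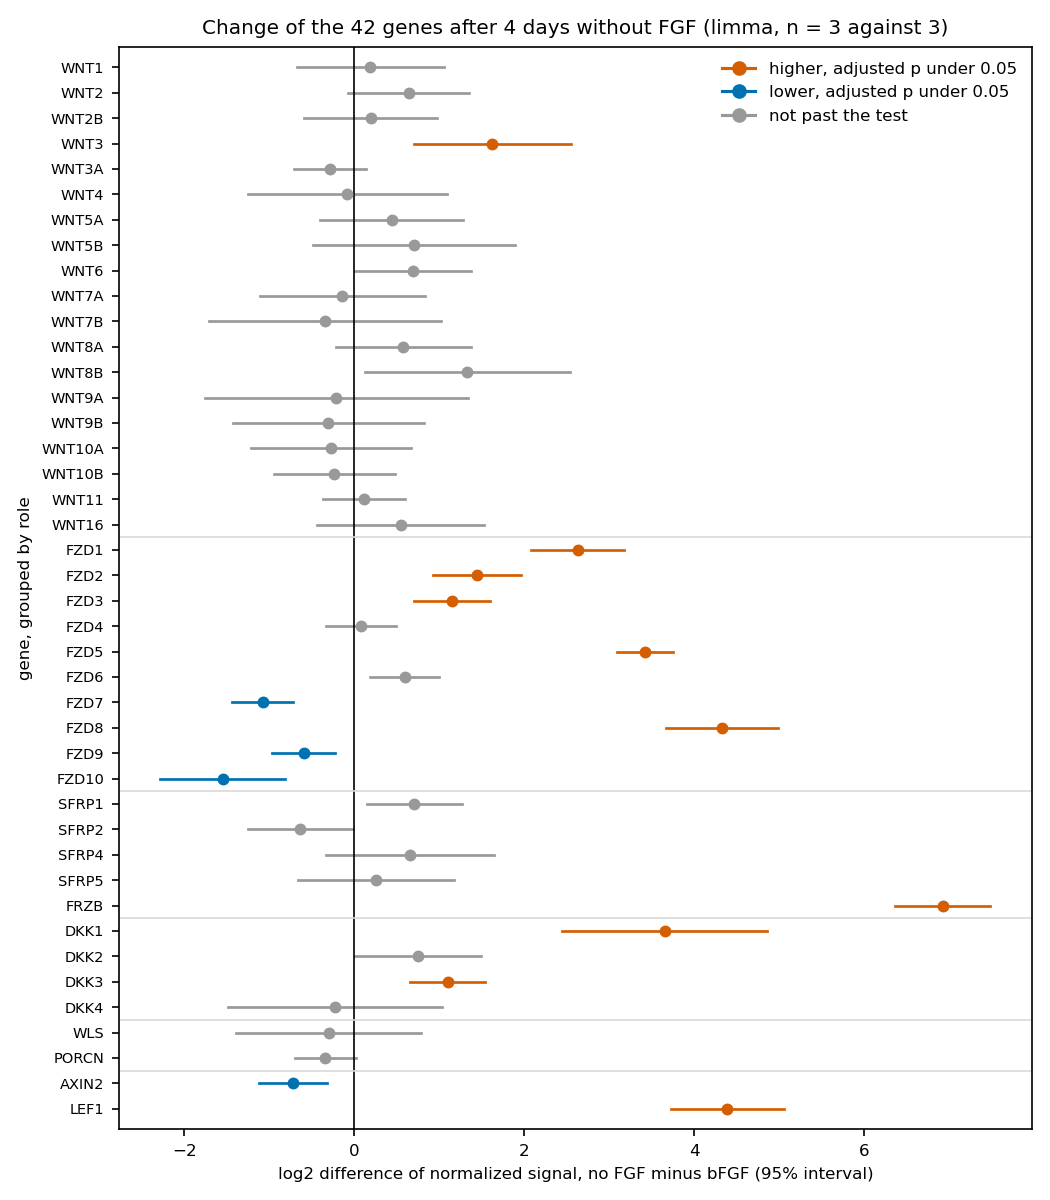
Log2 difference of normalized signal between cultures without FGF and with bFGF after 4 days, with the 95% interval from limma, for the 42 genes in order of their role (3 cultures per arm). FRZB at 6.93, LEF1 at 4.39 and FZD8 at 4.33 lie farthest to the right, and FZD10 at -1.55 farthest to the left.

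**Figure D3:**
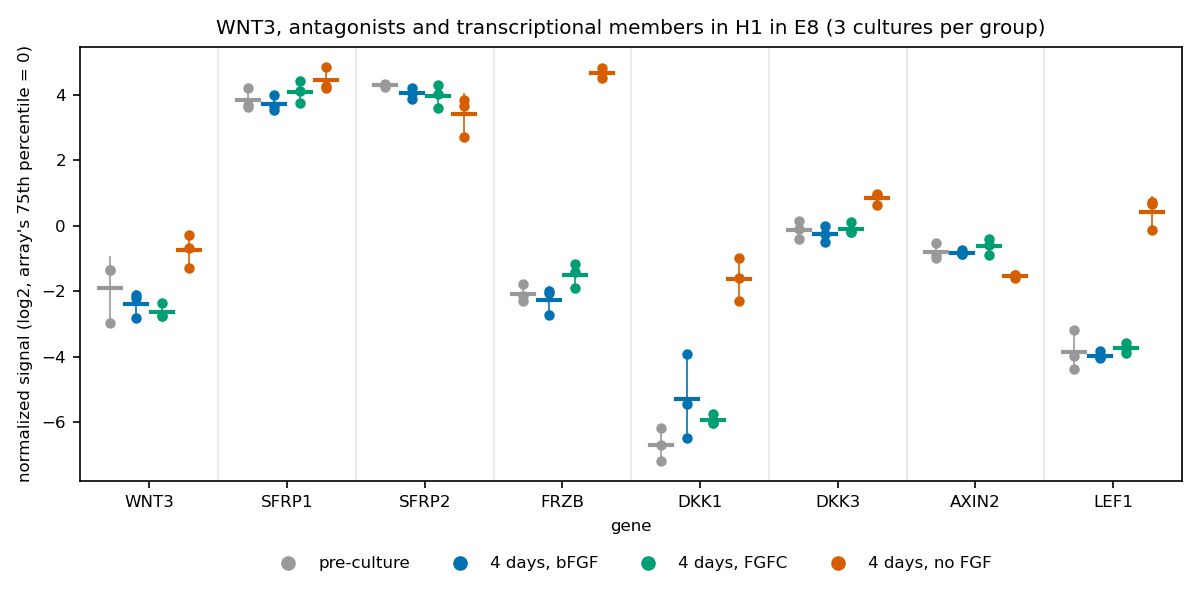
Normalized signal (log2) of WNT3, of 5 antagonists and of AXIN2 and LEF1 in H1 cells in E8 Medium, with points, means and SDs as in the plot of the frizzled receptors. FRZB without FGF lies at 4.51 to 4.84, and AXIN2 is the one gene shown whose FGF-free cultures, at -1.58 to -1.5, lie below all others.

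The members that passed in every alternative run against bFGF and against FGFC were 6, FZD1, FZD5, FZD8, FRZB, DKK1 and LEF1. In experiments 1 and 3 the 3 arms shared a slide, and within these 2 slides FRZB rose by 7.39 and 6.84 over bFGF, LEF1 by 3.90 and 4.51, FZD8 by 4.17 and 4.53, and FZD5 by 3.36 and 3.49.

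Among 53 other genes of the pathway, 17 passed against bFGF, 12 higher and 5 lower, and 15 against FGFC, 10 higher and 5 lower. These are 32.1% and 28.3% of the list, where 12.7% and 10.8% of all probes passed. The list was chosen with earlier results of these data known, so the shares are a description and not a test. In the branch of co-receptors and R-spondins, 5 of 17 rose and 3 fell. RSPO3, a secreted enhancer of WNT signals, rose by 4.42, and its relative RSPO1, not well above background on any array with bFGF, was at least 9.35-fold higher. Their receptor LGR4 rose by 2.04 and ROR2, a receptor for WNT5A, by 2.12. Among other inhibitors SOSTDC1, which binds LRP co-receptors, rose by 3.06, and 2 of 8 passed. Of 16 intracellular components 2 passed, or 12.5%, which is no more than the 12.7% of all probes. Of 12 target genes 3 rose and 2 fell. SP5 was at least 47.3-fold and MSX2 at least 7.53-fold higher, since neither was well above background on any array with bFGF. The third target that passed upward, TBXT, was not well above background on any array of either arm. MYC fell by 2.02 and NKD2, a negative feedback regulator, by 0.93.

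FGFC was compared with bFGF to see whether it kept the same levels. After 4 days no member passed and no probe passed (0%), while 1262 probes and 2 of the 42 members had an unadjusted p under 0.05. Those 2 were FRZB and WNT2B, a canonical ligand. FRZB was higher with FGFC in 3 of 3 experiments, by 0.80, 0.64 and 0.85 (mean 0.76, 95% interval 0.20 to 1.33, adjusted p = 0.9999). WNT2B was higher by 0.82 (0.03 to 1.60) but was well above background on 3 of 6 FGFC arrays and on none with bFGF. For LEF1 the interval was -0.45 to 0.89, for AXIN2 -0.21 to 0.59, for FZD5 -0.02 to 0.65 and for FZD8 -0.07 to 1.26, so differences of that size were not resolved with 3 cultures an arm.

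In the 5 long-term systems, with the system as a block, again no member and no probe passed (0%), and 2537 probes and 8 members had an unadjusted p under 0.05. WNT3 was lower with FGFC in 5 of 5 systems, by 0.97 and 0.21 in H1 (E8 Medium and MEF-CM), 0.61 and 0.33 in the iPS lines 201B7 and 253G1, and 0.29 in KhES-1 (mean -0.48, 95% interval -0.81 to -0.16, adjusted p = 0.701). AXIN2 was higher in 5 of 5, by a mean of 0.25 (0.01 to 0.50, adjusted p = 0.701). WNT9A was lower in 5 of 5 by a mean of 0.63 but was well above background on 1 of the 20 arrays. The mean difference was 0.44 for FZD8 (0.03 to 0.85), 0.42 for FRZB (-0.24 to 1.09) and 0.04 for FZD7 (-0.27 to 0.35).

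The media and lines were compared without a test, because each system other than H1 in E8 Medium had 1 pre-culture and 1 culture per FGF, and its arrays lay on slides of their own, so that slide and system cannot be told apart. A probe was called where every culture of one side lay above every culture of the other, the means differed 2-fold or more and the probe was well above background on all arrays of the higher side. The median of all probes was shifted by -0.15 in MEF-CM against E8 Medium, by 0.34 in 201B7 against KhES-1 and by -0.21 in differentiated against E8 cultures, so differences should be read against these shifts.

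H1 cells in MEF-CM had lower levels of FZD2, SFRP1, SFRP2 and LEF1 and higher levels of WNT3 and WNT11 than H1 cells in E8 Medium. The MEF-CM cultures had 5 ng/mL of FGF and the E8 cultures 100 ng/mL, so medium, FGF dose and slide cannot be told apart. Of the 42 members 2 were called higher and 4 lower, where 2.96% of all probes were called higher and 2.73% lower. FZD2 stood at -0.27, -1.05 and -0.71 in MEF-CM, while its lowest, median and highest levels in the 11 E8 cultures were 2.31, 2.80 and 3.55 (10.9-fold lower). SFRP1 stood at 1.04, 0.74 and 0.77 against 3.55, 3.99 and 4.49 (8.74-fold lower). SFRP2 stood at 2.65, 2.59 and 2.22 against 3.61, 4.24 and 4.35 (3.15-fold lower). In all 3 genes the gap between the sides was wider than the range within the MEF-CM cultures. LEF1 stood at -4.69, -4.88 and -4.84 against -4.38, -3.84 and -2.50, and was not called after quantile normalization, with normexp, with a floor under dim signals or on the second arrays.

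WNT3 stood at 0.11, 0.10 and -0.11 in MEF-CM against -4.22, -2.75 and -1.35 in E8 Medium, which was 6.04-fold higher. WNT11, a ligand of the non-canonical branch, stood at -5.03, -4.32 and -4.48 against -7.01, -6.33 and -5.89 and was well above background on 1 of the 22 E8 arrays, and its call was lost with normexp or a floor. Beside this, 4 of 37 markers were called higher in MEF-CM and none lower, AFP by 3.97, COL1A1 by 2.11, GATA3 by 2.10 and FOXD3 by 1.00. They were 1 of 4 hepatic and yolk sac genes, 1 of 7 fibroblast and mesenchyme genes (median of the list -0.26), 1 of 6 amnion and trophoblast genes and 1 of 3 neural crest genes. The summed signal of the hepatic and yolk sac list was 8.53 to 17.8 against 0.643 to 1.99 in the E8 cultures. AFP was the largest term of this sum in MEF-CM, at 3.78, 3.07 and 4.14, so the sum mainly follows AFP. The summed signal of the fibroblast list was 63.7 to 68.2 against 43.1 to 65.8. The part of these markers in the differences was not tested.

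In 253G1 against H1, both in E8 Medium, FZD7 was the 1 member called, at 4.48, 4.61 and 4.65 against 3.29, 3.59 and 3.90. The mean ratio was 2.01, so the call sits on the 2-fold limit, and it was lost after quantile normalization and without the culture kept with bFGF for 36 days, or with FGFC. The shares of all probes called were 1.63% higher and 3.45% lower.

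Between 201B7 and KhES-1, which differ in line, FGF dose and slide, 2 members were called higher and 3 lower in 201B7, beside 7.48% and 1.63% of all probes. FZD10 was not well above background on any array of 201B7, at -5.87, -7.40 and -7.05, and was at -1.60, -2.79 and -2.77 in KhES-1, which made it at least 12.2-fold lower. FZD1 stood at 1.5, 0.45 and -0.74 in 201B7 (pre-culture, bFGF, FGFC) and at -3.69, -3.43 and -3.65 in KhES-1. FZD2 stood at 3.13, 2.41 and 1.58 against 1.13, 1.51 and 1.38. Both genes were highest in the 201B7 pre-culture and lowest in its FGFC culture. The summed signal of 7 fibroblast and mesenchyme genes was 255, 142 and 75.1 in these same cultures and 39.0 to 43.6 in KhES-1. DCN was higher in 201B7 by 9.69. The part of these genes in the FZD1 and FZD2 levels was not tested. The arrays of the 201B7 pre-culture had 75th percentiles at signals of 181.5 and 234.1, the lowest of all arrays. On the other 201B7 arrays these were 504.2 to 632.3, and this scaling enters the orderings above. WNT10B, a canonical ligand, stood at -3.53, -4.29 and -4.00 against -2.96, -2.49 and -2.53. The call of WLS as lower rests on 1 of its 2 probes, since the 2 probes differed by -2.01 and 4.88. With normexp only FZD1 of these 5 was called, and FZD2 was also lost without the 201B7 pre-culture, without the KhES-1 pre-culture and on the first arrays.

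The differentiated culture differed from undifferentiated H1 cells in most ligands. Of the 42 members 25 were higher and 4 lower than all 11 E8 cultures by the call rule, while 11% and 8.69% of all probes were called. With 1 culture there is no test and no error of the differentiated value. Of the 19 ligands 14 were called higher, WNT1, WNT2, WNT2B, WNT3, WNT4, WNT5A, WNT5B, WNT6, WNT7A, WNT7B, WNT8B, WNT10A, WNT10B and WNT11. Of the 5 others WNT3A, at -2.22 on its brighter probe, lay within the E8 range, but its second probe was higher by 4.99, so its direction is uncertain, and WNT8A, WNT9A, WNT9B and WNT16 were not well above background on either array.

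The largest rise was in WNT6, a canonical ligand, at 4.89 against -4.94, -3.95 and -3.84 (lowest, median and highest of the E8 cultures), a ratio of 547. WNT1, a ligand of the developing brain, was at 1.39 against -6.67, -6.39 and -5.0, and WNT8B at -0.36 against -7.00, -5.99 and -4.29, each well above background on 2 of the 22 E8 arrays. WNT7B was at -0.39 against -7.90, -6.01 and -4.72, and WNT11 at -1.23 against -7.01, -6.33 and -5.89, each so on 1 of the 22. WNT2B was at -0.38 against -6.70, -5.63 and -4.75, and WNT10A at 0.17 against -5.79, -4.83 and -4.03. For ligands with so few measured E8 arrays the ratio depends on signals near background. WLS, the carrier of WNT ligands, was at 1.35 against -5.25, -4.40 and -3.55.

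Among the receptors FZD1, FZD3, FZD6 and FZD10 were called higher and FZD5 and FZD7 lower. FZD5 stood at -2.12 against 0.78, 0.98 and 1.36, or 8.86-fold lower, whereas the 4-day FGF-free cultures had stood at 4.19 to 4.42. FZD10 stood at 1.00 against -4.73, -3.03 and -2.80, whereas it had been at -4.97 to -3.88 without FGF. FZD8 stood at -1.98, inside the E8 range of -3.25 to -1.55. FZD7 was low in both, at 1.75 here and 2.08 to 2.46 without FGF, and FZD1 was high in both, at 0.95 and -0.93 to -0.57.

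Of the antagonists FRZB was at 3.96 against -2.71, -2.0 and -0.85, while SFRP1 and SFRP2 were lower, at 2.18 and 2.70 against lowest E8 levels of 3.55 and 3.61. DKK1 was at 0.22 against -7.18, -6.19 and -3.90, and DKK2 at -1.72 against -7.62, -6.77 and -4.71. LEF1 was at 2.98 against -4.38, -3.84 and -2.50, a ratio of 103. AXIN2 was at 1.11 against -0.99, -0.72 and -0.07, so that it lay above the E8 cultures here and below the bFGF and FGFC cultures after 4 days without FGF. Of 53 other pathway genes 17 were called higher and 7 lower. SP5 was at 2.18 and RSPO1 at 0.35, against highest E8 levels of -5.50 and -5.46, and each was well above background on 2 of the 22 E8 arrays, so that the size of these differences depends on signals near background. RSPO2 was at least 73.2-fold higher. Markers of many lineages were called higher in this culture, 6 of 6 amnion and trophoblast genes, 3 of 3 neuroectoderm genes, 4 of 4 hepatic and yolk sac genes and 6 of 7 fibroblast and mesenchyme genes. So were 3 of 4 endoderm, 3 of 5 primitive streak and mesendoderm and 2 of 3 neural crest genes. FOXD3 of the neural crest list and THY1 of the fibroblast list were called lower, as were 4 of 5 pluripotency genes. The cell types that carry each WNT ligand cannot be told apart in 1 bulk culture.

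**Figure D4:**
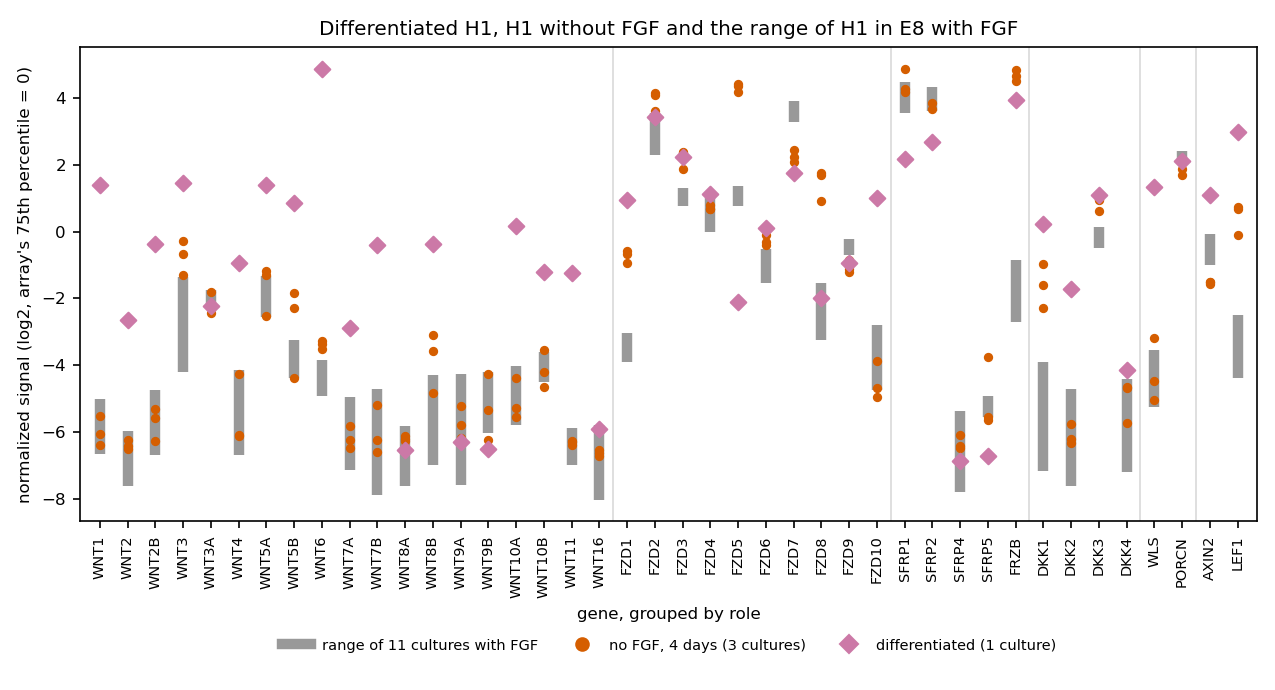
Normalized signal (log2) of the 42 genes in the differentiated H1 culture (diamonds), in the 3 cultures after 4 days without FGF (points) and as the range of the 11 H1 cultures in E8 Medium with bFGF or FGFC (grey bars). The diamond of WNT6 at 4.89 stands above a bar of -4.94 to -3.84, and for FZD5 the diamond at -2.12 lies below the bar and the points at 4.19 to 4.42 above it.

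**Figure D5:**
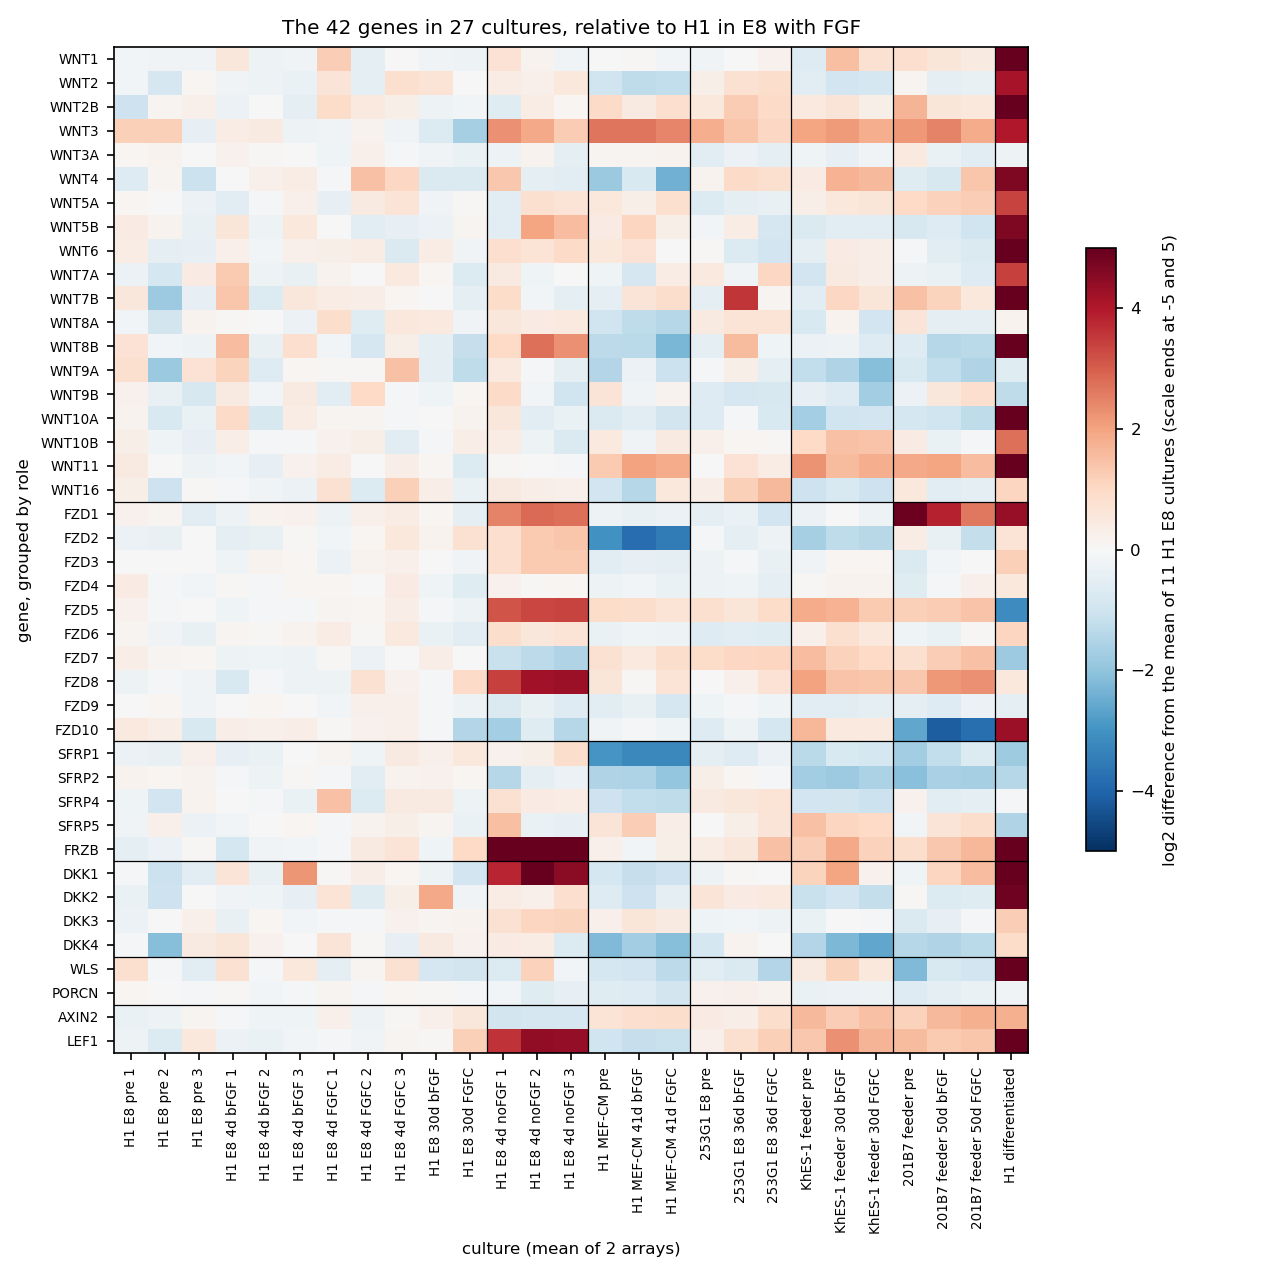
Log2 difference of each gene in each of the 27 cultures from its mean in the 11 H1 cultures in E8 Medium with FGF, shown on a colour scale that ends at -5 and 5, with genes in rows by role and cultures in columns by system. Red cells are higher and blue cells lower, and the column of the differentiated culture is red for 14 called ligands.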

How the data were processed

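Total RNA of 27 cultures was hybridised to 54 one-colour Agilent human arrays, 2 per culture. The deposited values are scanner intensity per spot, extracted by the authors with Agilent Feature Extraction 10.7.3.1 per the labels and corrected for background by that software. Here, control spots (4259 of 62976) and spots marked as outliers (266 to 623 on an array) were removed, spots of a probe were averaged with signals under 1 set to 1, and log2 values were set against the 75th percentile of each array (a signal of 182 to 913). Duplicate arrays were then averaged. Of 42405 probes 25715 were named through RefSeq accessions. No probe value was saturated and 606 were missing. The number of cultures limits the precision.

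Arms were compared with limma 3.58.1 in R 4.3.3 (lmFit, eBayes) over the 12 H1 cultures in E8 Medium of the 3 experiments, with Benjamini-Hochberg adjustment over all probes and a threshold of 0.05. The long-term comparison had the system as a block. Comparisons of media, lines and differentiation used the call rule given above, with no test. An "at least" fold sets the brighter group against the higher, per array, of the lowest signal well above background and the dim probe's own. By their titles, arms of the same experiment number share a passage, so the number was taken to pair the arms. Deviations of same-numbered arms from their group means correlated at 0.077 to 0.32 (median 0.23, 9 pairs). In experiment 3 the passage in the sample title and in its characteristics differ on 5 arrays.

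Alternatives were the normexp background correction (offset 50), quantile normalization, a floor under dim signals, single arrays, a filter on dim probes, the experiment or slide as a block, 2 arms in the fit, and leaving out cultures. The script was tested on simulated data. Members and lists were chosen with earlier results of these data known. A member is given by culture where it passed or was called, up to 12 per comparison by size, with up to 8 other pathway genes. Tables were made with pandas 2.3.3, numpy 2.4.6 and scipy 1.17.1 under Python 3.11.15, and plots with matplotlib 3.10.9.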

Additional observations from a re-analysis of the deposited data

Results flagged for a closer look

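In the long-term cultures 4 differences between FGFC and bFGF stood apart from those of the other systems, by a gap that was large against the range of the 5 systems (Dixon's criterion for 5 values). All 42 members were examined this way, and chance alone marks about 1 in 20 of such groups. WNT7B was lower with FGFC by 3.44 in 253G1 cells (log2 difference -3.445), at -5.96 against -2.52, where the other systems gave -0.59 to 0.23, and 1 of the 4 arrays was well above background. That array, 1 of the pair with bFGF, was at -0.50 and its duplicate at -4.54, a gap of 4.04 that is wider than the difference itself. WNT9B was lower in KhES-1 (-1.095), where the others gave 0.03 to 0.37. WNT2 was lower in H1 in E8 Medium (-0.7256), where the others gave 0.04 to 0.13. SFRP4 was lower in the same pair of cultures (-0.6845), where the others gave -0.14 to 0.08. In the last 3 cases none of the 4 arrays was well above background.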

How the results depend on the processing

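Against bFGF the number of members past the test without FGF was 14, and it was 8 to 12 when 1 of the 3 experiments was left out, with 8 without experiment 2 and 8 without experiment 3. Against FGFC it was 15, and 7 to 12 with 1 experiment left out. Each of these fits has fewer cultures. With the experiment as a replicate block, which pairs the arms, 16 members passed against bFGF (12 higher, 4 lower, with FZD6 and SFRP1 gained), 15 against FGFC and 0 between FGFC and bFGF, and the long-term comparison gave 0 with no replicate block. With only the 2 arms compared in the fit, 21 passed against bFGF and 12 against FGFC. FGFC against bFGF gave 0 members under all alternatives run. In MEF-conditioned medium 10 members were called without the condition on signal over background, in place of 6. In 253G1 the single call went to 0 with quantile normalization, and to 0 to 1 when 1 culture was left out. In 201B7 normexp left 1 of 5 calls, and the cause was not tested. Of 84 alternative counts 76 stayed within 1.5 times the reported count and 8 did not. Of 347 alternative values of single members in the FGF-free comparisons, 300 kept their call, 47 no longer passed and none changed direction. Signals near background limit the values of most ligands and of DKK1, DKK2, DKK4, SFRP4 and SFRP5.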
